A study of Mus musculus with 53 samples.

Results

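Tmc3, Prob1 and Ppl are 3 of 12372 genes whose transcripts were counted by RNA sequencing of 4 brain regions (brainstem, cerebellum, cortex, striatum) from SCA3 and wild-type mice. They were taken by symbol from the count table, and were chosen because their read counts were higher in SCA3 than in wild-type brain across the regions, so the genotype difference of these 3 genes is described here and is not tested. The SCA3 mice were of the MJD84.2 line, which carries a complete human copy of ATXN3, CAG-expanded and driven by the human promoter, in addition to the intact mouse Atxn3 gene. Their controls were wild-type. All mice were male C57BL/6, untreated, had been through motor tests and were aged to 17.5 months (74 to 77 weeks), and no ataxia had been found in the SCA3 mice. Since a single transgenic line was used, effects of the transgene insertion and of the human protein cannot be told apart. The 53 libraries came from 14 mice, with 8 wild-type and 6 SCA3 libraries for brainstem, 7 and 6 for cerebellum, 7 and 6 for cortex, and 8 and 5 for striatum.

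Tmc3 encodes transmembrane channel-like 3, a member of the family to which the mechanotransduction channel proteins Tmc1 and Tmc2 of inner ear hair cells belong. Ppl encodes periplakin, a cytolinker of the plakin family that is best known from epithelia, where it connects intermediate filaments with desmosomes and with the cornified envelope. Prob1 encodes proline-rich basic protein 1, a protein of which little is known.

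On the mouse genome GRCm38, Tmc3 (RefSeq gene 233424) was annotated on the plus strand of chromosome 7 at 83584904 to 83626852, and its GENCODE transcript had 23 exons and 6221 bases.  The strand of a read was not used in counting. An antisense gene, Gm16638, shared 3961 exonic bases with Tmc3, or 63.7% of the Tmc3 transcript, and had no row of its own in the count table, so reads of Tmc3 and of Gm16638 cannot be told apart there.

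The study's quantitative PCR primers for Tmc3 are shown because their forward primer is in a part of the transcript that Gm16638 does not cover. The forward primer is in exon 4 (chr7:83596107-83596127, plus strand) and matched Tmc3 as the only gene of the annotation. The reverse primer is in exon 5 (chr7:83597533-83597552, written 5′ to 3′ on the minus strand), where Gm16638 also has exonic sequence. The amplicon spans 142 bases of the transcript. From quantitative PCR of the same samples the paper reports a significant change for every gene chosen for that assay, of which Tmc3 was one.
mTmc3_Qex4_Fw: tcatcccctgggaaatgagga
mTmc3_Qex5_Rev: tcgggaaggacaacaaaggc

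Of the 3 genes, Tmc3 had an entry in the RefSeq promoter table for GRCm38.p6. The 250 bases before the start site that this table uses, 83584931, are shown (chr7:83584681-83584930, plus strand, 5′ to 3′) because they precede the gene with the most complete separation between genotypes. The capitals mark a CCAAT box, read on both strands, which stood 81 bases before that site. The site is 27 bases inside the gene record given above, so the window runs over the first bases of that record.
Tmc3 upstream: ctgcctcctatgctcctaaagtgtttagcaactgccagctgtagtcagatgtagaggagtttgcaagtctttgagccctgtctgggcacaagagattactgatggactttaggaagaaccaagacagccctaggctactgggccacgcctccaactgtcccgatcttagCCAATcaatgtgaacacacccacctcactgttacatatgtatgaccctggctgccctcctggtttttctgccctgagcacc
A CCAAT box was found in 33.8% of 32851 promoter windows of that length. The window held 5 matches to the E-box CANNTG, a motif present in 66.2% of windows. None was found of TATAAA (in 12.4% of windows), GGGCGG (32.7%), the CRE core TGACG (17.8%) or the full CRE TGACGTCA (1.55%, a motif that contains the core). These matches are descriptions of the sequence and say nothing of which factors bind there.

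Totals per library, of reads assigned to the 12372 genes, were between 31.7 and 76.7 M (M for mega), with a median of 57.7. In each region the summed level of that region's own marker genes was highest in that region, but its libraries stood above all others only in cerebellum. Summed cortical markers ranged from 377 to 1780 CPM among wild-type cortex libraries, and summed thalamic markers from 84.5 to 2050 CPM among wild-type striatum libraries against 88.7 to 269 CPM in SCA3 striatum. These sums thus varied widely between libraries of one region. Some markers of cerebellum, cortex and brainstem were not analysed here. The bodyweight was 43.4 ± 5.61 g in the 8 wild-type mice and 31.0 ± 2.55 g in the 6 SCA3 mice (SD), and an exact permutation test gave 0.000333, its smallest possible p.

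All 3 genes were expressed at low levels. Levels are given as CPM, the usual scaling of counts to a common, TMM-adjusted library total. The mean over all libraries was 8.18 CPM for Tmc3, 12 CPM for Prob1 and 7.25 CPM for Ppl, and 1181, 2163 and 929 of the measured genes had a lower mean, respectively. The lowest count behind any value was 97 reads for Tmc3, 226 for Prob1 and 54 for Ppl. The biological coefficient of variation, the spread between mice beyond counting error in the fit, was 15.2% for Tmc3, 12.8% for Prob1 and 29.7% for Ppl, against a median of 11.3% over all genes. Ppl was therefore the most variable of the 3.

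Levels in wild-type mice were compared between regions first. The genes were not chosen for a difference between regions, but the wild-type libraries are one side of the contrast on which they were chosen, and a low wild-type level in a region raises the fold there. The tests between regions are therefore not independent of the choice. Each of the 3 genes had its own order of regions. Between genes, on the scale of CPM per kilobase of transcript, the wild-type brainstem level was 2.36 ± 0.286 for Prob1, 1.02 ± 0.152 for Tmc3 and 0.359 ± 0.26 for Ppl (SD, n = 8). In wild-type cerebellum Ppl moved from last to first, with Ppl at 1.38 ± 0.282, Prob1 at 1.17 ± 0.107 and Tmc3 at 1.09 ± 0.183 CPM per kilobase (SD, n = 7).

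Tmc3 was lowest in wild-type cortex. Its level was 6.78 ± 1.14 CPM in cerebellum (SD, n = 7), 6.34 ± 0.945 in brainstem (n = 8), 5.41 ± 0.685 in striatum (n = 8) and 3.77 ± 0.705 in cortex (n = 7). Cortex fell below brainstem by 0.75 on the log2 scale (FDR = 1.04e-08), below cerebellum by 0.84 (FDR = 2.5e-10) and, expressed as striatum over cortex, the log2 difference was 0.52 (FDR = 0.000325). In every mouse with both libraries Tmc3 was lower in cortex than in these regions, in 7 of 7, 6 of 6 and 7 of 7 mice. Striatum was also below cerebellum, with a log2 difference of -0.32 (FDR = 0.0127), although this call was lost without wild-type mouse 9083372 (-0.27) or 9083375 (-0.27). The neighbours at the top of the order did not pass the test, namely cerebellum over brainstem (0.09 with a 95% interval of -0.15 to 0.33, FDR = 0.511) and striatum over brainstem (-0.23, interval -0.46 to -0.0021, FDR = 0.0714). The latter passed without wild-type mouse 7267058 (-0.28). These tests were made among genes of which 72.6% differed between cerebellum and brainstem, 65.4% between cortex and brainstem, 64.2% between striatum and brainstem, 69.7% between cortex and cerebellum, 69.5% between striatum and cerebellum, and 34.4% between striatum and cortex. A regional difference was thus the common case.

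Prob1 was lowest in wild-type cerebellum. The gene (RefSeq gene 381148) is on the minus strand of chromosome 18 at 35650347 to 35655221, and its transcript has 1 exon and 4888 bases. It is within the span of the same-strand SPATA24 gene model but shares 0 exonic bases with it. Prob1 measured 11.5 ± 1.4 CPM in brainstem (SD, n = 8), 10.8 ± 2.13 in striatum (n = 8), 8.82 ± 0.967 in cortex (n = 7) and 5.72 ± 0.525 in cerebellum (n = 7). Cerebellum was below brainstem by a log2 difference of -1.01 (FDR = 4.55e-21) with no overlap between libraries, and cortex and striatum were above cerebellum by 0.63 (FDR = 2e-08) and 0.92 (FDR = 6.35e-18). The cortical level was below brainstem (-0.38, FDR = 0.000392) and below striatum, where striatum over cortex was 0.30 (FDR = 0.0143), higher in 7 of 7 mice. The last call was lost without wild-type mouse 7267059 (0.22). Striatum and brainstem did not differ beyond their spread, at -0.09 with an interval of -0.28 to 0.10 (FDR = 0.438).

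Ppl was lowest in wild-type brainstem. The gene (RefSeq gene 19041) is on the minus strand of chromosome 16 at 5086291 to 5132481, and its transcript has 22 exons and 6217 bases. Ppl measured 8.6 ± 1.75 CPM in cerebellum (SD, n = 7), 4.87 ± 1.45 in striatum (n = 8), 4.79 ± 1.03 in cortex (n = 7) and 2.23 ± 1.61 in brainstem (n = 8). Relative to brainstem the log2 differences were 1.96 for cerebellum (FDR = 3.1e-16), 1.11 for cortex (FDR = 4.77e-06) and 1.14 for striatum (FDR = 1.57e-06). Cortex and striatum were below cerebellum by log2 differences of -0.84 (FDR = 0.000639) and -0.82 (FDR = 0.000566), and did not differ from each other beyond their spread (0.03, interval -0.42 to 0.47, FDR = 0.945). The brainstem order held in 7 of 7 mice for cerebellum and for cortex and in 7 of 8 for striatum, the exception being mouse 7267059.

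SCA3 mice were set beside wild-type mice next. Because the genes were picked on this contrast, the values are given as levels, fitted log2 fold changes with standard errors (SE) and, in the plot of fold changes, 95% intervals. All 12 fold changes, of 3 genes in 4 regions, were above 0, which the choice of genes fixes. The share of all genes with every SCA3 library above every wild-type library was 0.768% in brainstem, 0.129% in cerebellum, 0.17% in cortex and 0.242% in striatum, and 8 of the 12 comparisons of the members had that form. Nothing is read from this member count, since the rule used the same contrast. A change in the number of cells of a type and a change in RNA per cell cannot be told apart in tissue samples.

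**Figure D1:**
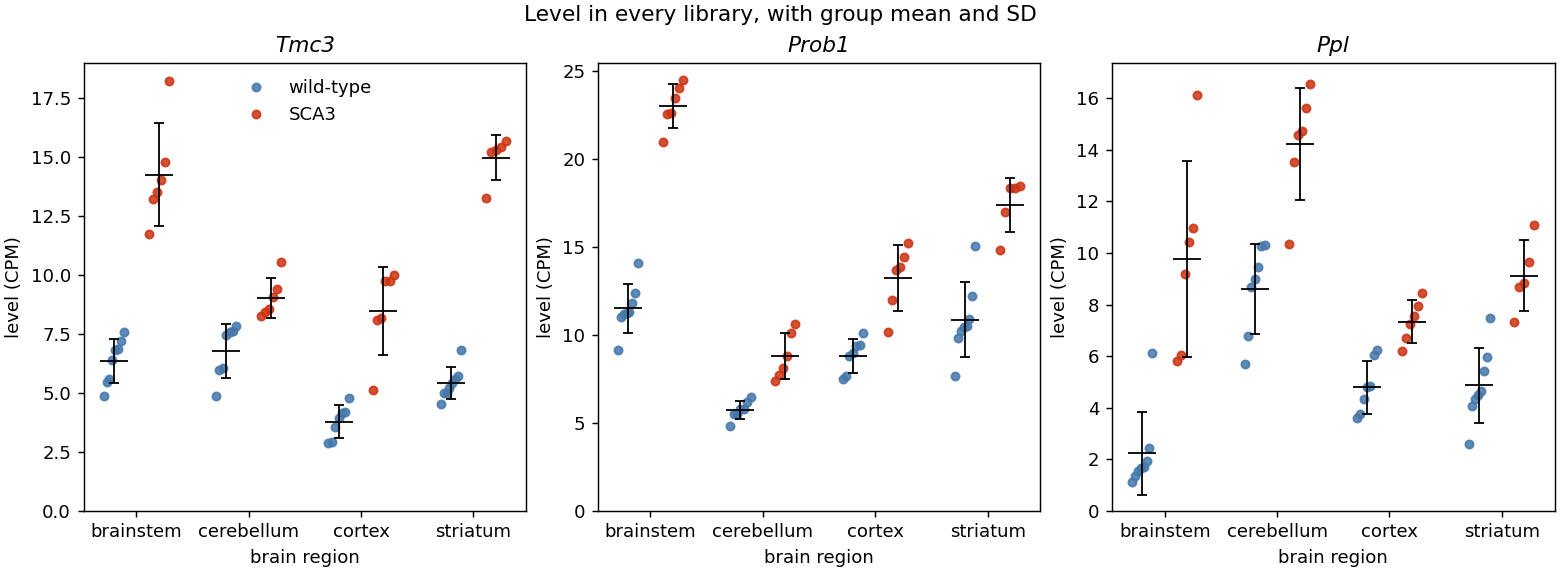
Level of Tmc3, Prob1 and Ppl (y axis, CPM, linear) in each library by brain region (x axis). Each point is a library, blue for wild-type and red for SCA3, and black bars give the group mean ± SD. Points of the 2 genotypes do not overlap for Tmc3 in any region, whereas for Ppl in brainstem the wild-type library at 6.11 CPM lies among the SCA3 libraries.

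Tmc3 separated the genotypes in all 4 regions. In brainstem the wild-type libraries ran from 4.87 to 7.57 CPM with a median of 6.6 (n = 8), and the SCA3 libraries from 11.7 to 18.2 with a median of 13.8 (n = 6). In striatum the wild-type libraries ran from 4.54 to 6.83 with a median of 5.32 (n = 8). The SCA3 striatum libraries measured 13.3 CPM in mouse 9083514, 15.2 in 9082853, 15.3 in 7267056, 15.4 in 7267054 and 15.7 in 9083515. Every SCA3 library of these regions was therefore well above every wild-type library.

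In cortex Tmc3 ran from 2.87 to 4.8 CPM with a median of 3.93 in wild-type (n = 7) and from 5.12 to 10.01 with a median of 8.95 in SCA3 (n = 6). In cerebellum it ran from 4.87 to 7.83 with a median of 7.47 (n = 7), against 8.25 to 10.5 with a median of 8.8 (n = 6). The gap was narrow in cerebellum, and in cortex it was closed almost entirely by SCA3 mouse 9082853, whose 5.12 CPM was next to the highest wild-type value while the other 5 SCA3 libraries were at 8.07 or more. The log2 fold change of Tmc3 was 1.47 in striatum (SE 0.131), 1.16 in brainstem (SE 0.124), 1.16 in cortex (SE 0.132) and 0.42 in cerebellum (SE 0.128). As linear folds these were 2.77, 2.24, 2.24 and 1.34. Whether they differed between regions was not tested, for the same reason that the differences themselves were not.

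Prob1 separated the genotypes in 3 of the 4 regions. Wild-type brainstem libraries ran from 9.14 to 14.1 CPM with a median of 11.3 (n = 8), and SCA3 ones from 21.0 to 24.5 with a median of 23.0 (n = 6). In cerebellum the ranges were 4.8 to 6.44 with a median of 5.77 (n = 7) and 7.38 to 10.6 with a median of 8.47 (n = 6). The brainstem groups were far apart and the cerebellar ones by less. In cortex the ranges touched, from 7.48 to 10.1 with a median of 8.94 in wild-type (n = 7) and from 10.2 to 15.2 with a median of 13.8 in SCA3 (n = 6), where the highest wild-type library had 10.12 CPM (mouse 9083375) and the lowest SCA3 library 10.15 (again mouse 9082853).

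In striatum Prob1 ran from 7.67 to 15.1 CPM with a median of 10.5 in wild-type mice (n = 8). The SCA3 libraries measured 14.8 CPM in mouse 9083514, 17.0 in 7267056, 18.3 in 9082853, 18.4 in 9083515 and 18.4 in 7267054. A single pair overlapped here, as wild-type mouse 7267059 at 15.08 was above SCA3 mouse 9083514 at 14.85. The log2 fold change of Prob1 was 1.00 in brainstem (SE 0.104), 0.68 in striatum (SE 0.11), 0.62 in cerebellum (SE 0.111) and 0.59 in cortex (SE 0.109), or folds of 2, 1.61, 1.54 and 1.5. Differences between these values were not tested.

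Ppl had the widest spread and separated the genotypes only in cerebellum. Its wild-type brainstem libraries ran from 1.12 to 6.11 CPM with a median of 1.67 (n = 8), and its SCA3 ones from 5.8 to 16.1 with a median of 9.81 (n = 6). In wild-type, 7 of the 8 brainstem libraries were at or below 2.43 CPM and mouse 7267059 alone was at 6.11, above SCA3 mice 9083513 (5.8) and 9082853 (6.03). That library had the lowest RNA integrity number of its group, 6.3, and whether this bears on its Ppl value was not tested. In cerebellum Ppl ran from 5.7 to 10.3 with a median of 8.99 in wild-type (n = 7) and from 10.3 to 16.6 with a median of 14.7 in SCA3 (n = 6), the facing libraries being at 10.30 and 10.33.

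Ppl in cortex ran from 3.58 to 6.24 CPM with a median of 4.79 in wild-type (n = 7) and from 6.18 to 8.44 with a median of 7.38 in SCA3 (n = 6). In striatum it ran from 2.58 to 7.47 with a median of 4.55 in wild-type (n = 8). The SCA3 striatum libraries measured 7.34 CPM in mouse 9083514, 8.67 in 9082853, 8.84 in 9083515, 9.65 in 7267056 and 11.1 in 7267054. In each of these regions the lowest SCA3 library, from mouse 9083514 in both, was just below the highest wild-type library. The log2 fold change of Ppl was 2.14 in brainstem (SE 0.238), 0.90 in striatum (SE 0.248), 0.73 in cerebellum (SE 0.241) and 0.62 in cortex (SE 0.243), or folds of 4.41, 1.87, 1.66 and 1.53. Brainstem, with the highest of these values, was also the region where wild-type Ppl was lowest. Without the brainstem library of wild-type mouse 7267059 the brainstem value was 2.53 (SE 0.198).

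**Figure D2:**
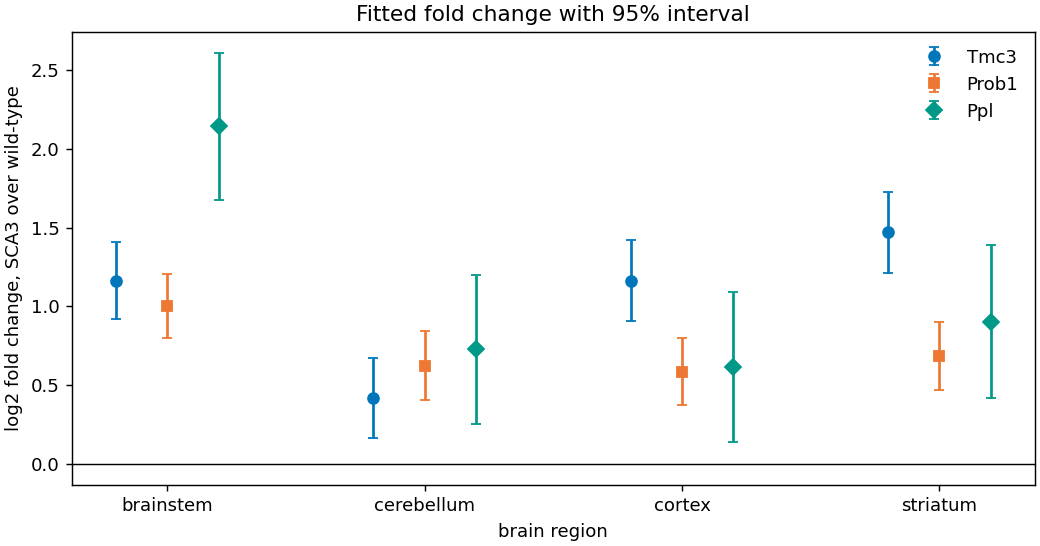
Fitted log2 fold change of SCA3 over wild-type (y axis) in each brain region (x axis) for Tmc3 (circles), Prob1 (squares) and Ppl (diamonds). Bars are 95% intervals. The values run from 0.42 (Tmc3 in cerebellum) to 2.14 (Ppl in brainstem). They describe the contrast on which the genes were picked, and differences between regions were not tested.

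The differences were recomputed within sets of mice that share the first digits of their number, a label whose meaning is not stated. Within the mice numbered 7267054 to 7267059 (3 wild-type, 2 SCA3) the 12 log2 differences ran from 0.36 to 2.08, and within those numbered 9083371 to 9083515 (4 and 3) from 0.38 to 2.33. The genes were picked on these same libraries, so the direction within each set is no independent evidence. Among mice 9083371 to 9083515, every SCA3 mouse had a higher number than every wild-type mouse and was younger. Mouse number and age therefore cannot be told apart from genotype within that set. The third set, mice 9082853 and 9082857, held 1 of each genotype and gave no value. Ppl in striatum was 1.44 in the first set and 0.55 in the second, and Prob1 in cerebellum 0.44 and 0.75.

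Other measures also differed between genotypes. The RNA integrity number in brainstem was 7.24 ± 0.424 for wild-type (SD, n = 8) against 7.78 ± 0.264 for SCA3 (n = 6), with an adjusted p of 0.0426 by exact permutation, and in the other regions the adjusted p was 0.382 or more. Library totals did not pass in any region (lowest adjusted p = 0.231, exact permutation). Of the 12 mature oligodendrocyte markers, 4 were lower in SCA3 brainstem and 6 in SCA3 striatum, where their summed level ran from 10800 to 22400 CPM in wild-type and 9790 to 16500 in SCA3 brainstem, and from 6920 to 20100 against 6370 to 9720 in striatum. Of the 8 astrocyte markers 4 were lower in brainstem (4430 to 9090 CPM in wild-type, 3810 to 5380 in SCA3) and 3 in striatum (4590 to 6480 and 4750 to 5270). Of the 8 oligodendrocyte precursor markers 2 were higher in brainstem (420 to 600 and 631 to 707 CPM) and 1 in striatum (416 to 624 and 467 to 547). Of the 7 thalamic markers measured, 5 were lower in SCA3 striatum, and 1 of 9 microglial markers was lower in brainstem, 1 of 7 neuronal and 1 of 3 cerebellar markers in striatum. The summed level of the 3 choroid plexus markers in cerebellum ran from 19.6 to 2120 CPM with a median of 140 in wild-type and from 658 to 2000 with a median of 1140 in SCA3, with 0 called by the edgeR likelihood ratio test and 1 at an unadjusted p below 0.05. That of the 2 brainstem markers measured, of 7 listed, ran in striatum from 18.5 to 36 CPM in wild-type and from 10.9 to 17.1 in SCA3. Of these 2 markers also 0 were called and 1 had an unadjusted p below 0.05. Among all genes, 1.92% were called in either direction in brainstem and 7.54% in striatum. Of the 28 oligodendrocyte, precursor and astrocyte markers 0 were called in cerebellum and 0 in cortex by the edgeR likelihood ratio test (5 and 4 with an unadjusted p below 0.05), where 0.0647% and 0.154% of all genes were called and 1.66% and 4.07% had an unadjusted p below 0.05. Their part in the differences of Tmc3, Prob1 and Ppl was not tested.

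Over the 53 libraries, after subtraction of the mean of each region and genotype group, log2 CPM of Tmc3 and Prob1 moved with the summed mature oligodendrocyte markers (Pearson's r of 0.484 and 0.481), and Prob1 also with those of oligodendrocyte precursors (0.62), thalamus (0.482), microglia (0.433), endothelium (0.431) and leptomeninges (0.343). The other 13 lists had values of 0.237 or less in size for Tmc3. For Ppl the values farthest from 0 were 0.333 with astrocyte and -0.33 with thalamic markers, and those with mature oligodendrocyte and precursor markers were -0.132 and -0.0466. The correlation with the RNA integrity number was -0.156 for Tmc3, -0.124 for Prob1 and -0.0787 for Ppl. These are descriptions over libraries that share mice.

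Whether the 3 genes were high in the same mice was asked within groups, so that the genotype difference does not enter. Over 7 groups of 6 to 8 mice and 3 pairs of genes, 17 of 21 correlations were above 0, with a median Pearson's r of 0.268, and 0 passed an adjusted p of 0.05 by exact permutation (1 had an unadjusted p below 0.05). By Spearman's rho 0 passed as well. Tmc3 and Prob1 were the pair with the most values above 0, with r above 0 in 7 of 7 groups and a median of 0.495 (0.117 to 0.935). Without the 2 mice farthest from the median of Tmc3 in each group, r was above 0 in 5 of 7 with a median of 0.13, and turned to -0.128 in wild-type striatum (from 0.495) and to -0.038 in SCA3 cerebellum (from 0.727). Prob1 with Ppl was above 0 in 6 of 7 groups (median 0.234) and Tmc3 with Ppl in 4 of 7 (median 0.155). Without the 2 farthest mice these pairs were above 0 in 5 of 7 groups each (medians 0.322 and 0.0674). Leaving out the farthest mice narrows the range and leaves fewer mice, which by itself can weaken r. With groups of 6 mice the sample is small, and a p that misses the threshold does not show that the genes vary independently.

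The highest value was for Tmc3 with Prob1 in SCA3 cortex, with Pearson's r of 0.935 (exact permutation p = 0.00694, adjusted p = 0.146) and Spearman's rho of 0.943 (exact permutation p = 0.0167, adjusted p = 0.35). Without the 2 mice farthest from the median of Tmc3, r was 0.673. Mouse 9082853 was lowest for both genes in that group and mouse 7267056 highest for both.

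**Figure D3:**
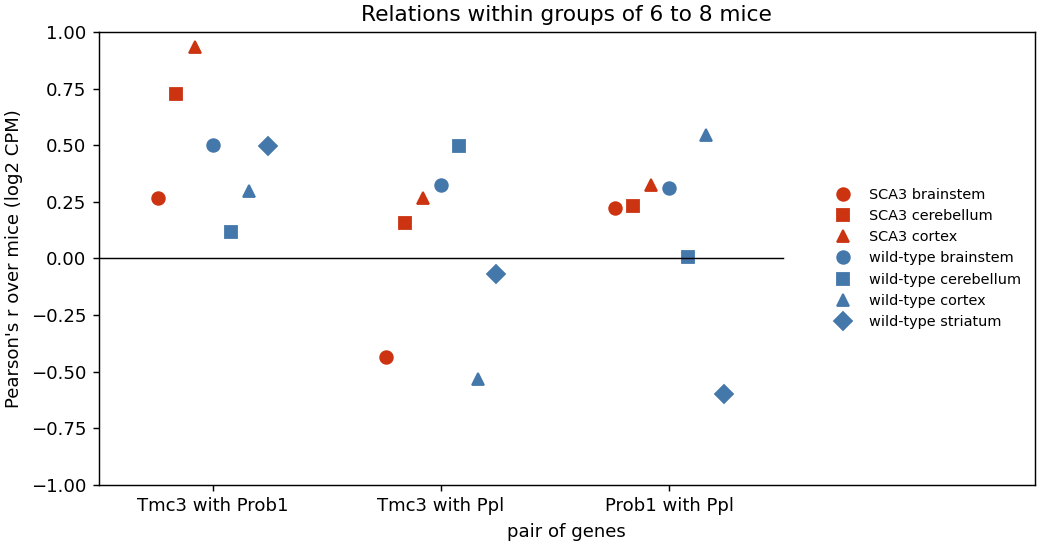
Pearson's r of log2 CPM between pairs of the 3 genes (y axis, -1 to 1) within each group of 6 to 8 mice. Colour gives genotype (blue wild-type, red SCA3) and symbol gives region. Tmc3 with Prob1 is above 0 in all 7 groups shown, from 0.117 to 0.935, and the other 2 pairs fall on both sides of 0.

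Among SCA3 mice no animal was highest throughout. Relative to the wild-type mean of the region, mouse 7267056 had the highest Ppl in brainstem (7.23-fold) and cortex (1.76-fold), the highest Tmc3 in cortex (2.66-fold) and the highest Prob1 in cortex (1.73-fold). Mouse 9083513 had the highest Tmc3 and Prob1 in brainstem (2.87-fold and 2.13-fold) but the lowest Ppl there (2.6-fold). The top mouse for a gene in a region was therefore not always the top mouse for the other genes. In striatum, with 5 SCA3 libraries and no test, mouse 9083514 was lowest for all 3 genes, at 2.45-fold for Tmc3, 1.37-fold for Prob1 and 1.51-fold for Ppl. Compared with its own group's mean, mouse 7267056 was above in 4 of 4 regions for both Tmc3 and Ppl but in 2 of 4 for Prob1, mouse 7267054 was above in 4 of 4 for Ppl, mouse 9083513 in 3 of 3 for Prob1, and mouse 9082853 was below in 4 of 4 for Ppl. Among wild-type mice, 9082857 was below its group's mean for Tmc3 and for Prob1 in 4 of 4 regions, by 0.36 and 0.2 on the log2 scale on average, and 9083373 for Ppl in 4 of 4 regions.

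**Figure D4:**
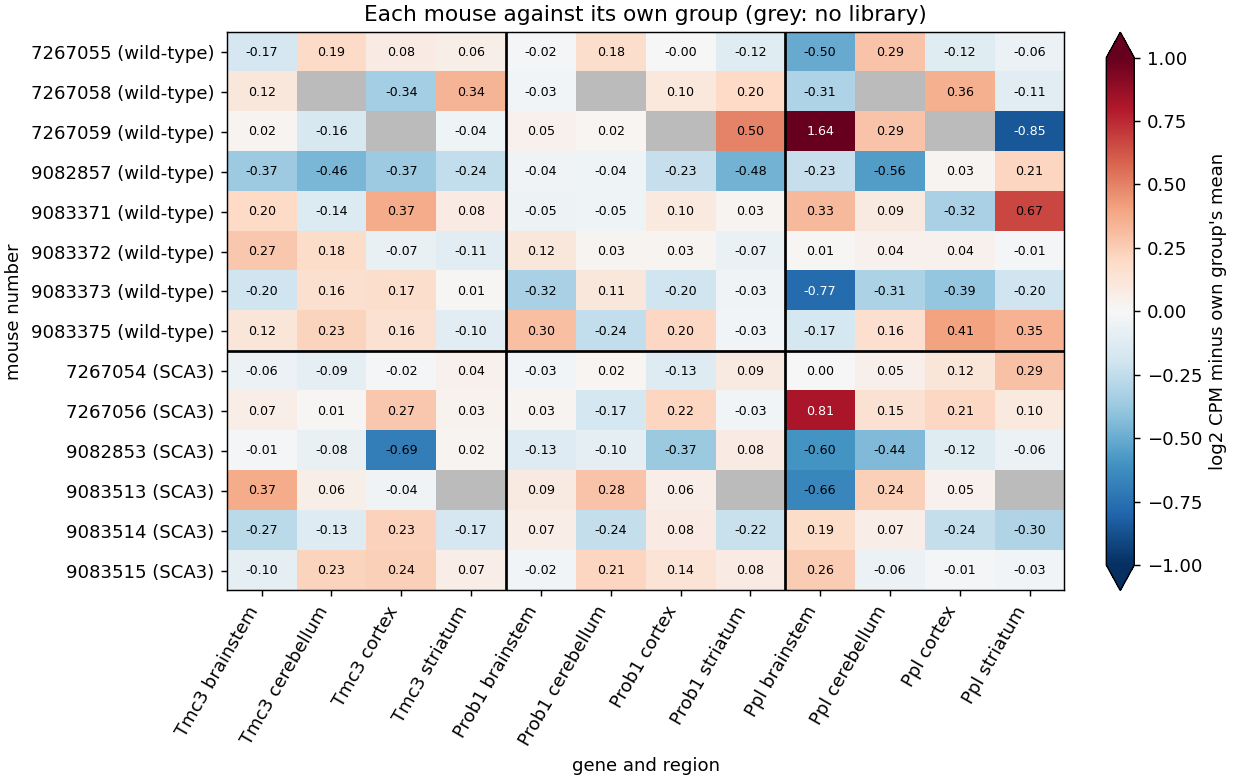
Log2 CPM of each gene and region (x axis) in each mouse (y axis) minus the mean of the mouse's own region and genotype group, in colour and as numbers, grey where there was no library. The widest departure is Ppl in brainstem of wild-type mouse 7267059 (1.64), and Tmc3 and Prob1 are below 0 in every region for wild-type mouse 9082857.

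A gene's level in a mouse in one region was also compared with its level in another. Of 27 such relations, over 6 to 8 mice, 21 were above 0 with a median r of 0.303, and 0 passed an adjusted p of 0.05 by exact permutation (0 also had an unadjusted p below 0.05). Values above 0 were seen in 8 of 9 for Tmc3, 7 of 9 for Prob1 and 6 of 9 for Ppl. The lowest r was -0.686, for Prob1 between brainstem and cerebellum in wild-type mice (exact permutation p = 0.0907, rho = -0.286). Without the 2 mice farthest from the median it was 0.134. The lowest p was for Prob1 between brainstem and cortex in SCA3 mice (r = 0.77, exact permutation p = 0.0708, adjusted p = 0.64, rho = 0.486 with p = 0.356), which was 0.417 without the 2 mice farthest from the median. In wild-type mice the same relation had r = 0.711 (exact permutation p = 0.0722, adjusted p = 0.64, rho = 0.536 with p = 0.236) and 0.0865 without such mice.

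The genes most like each member over the 53 libraries, by Pearson's r of deviations from group means, were Mtbp (0.704), Slain2 (0.696), A230001M10Rik (0.676), Fbxw15 (0.676) and Bche (0.674) for Tmc3. For Prob1 they were Adamtsl1 (0.783), Nfe2l3 (0.72), Slc25a45 (0.718), Trp53bp2 (0.699) and Chst3 (0.695). For Ppl they were Fam120a (0.562), Ttyh1 (0.546), Mapk4 (0.543), Fam174b (0.54) and Itgbl1 (0.535). No gene was on more than 1 of these lists. On the same measure Prob1 with Tmc3 had 0.484, where Prob1 was at rank 204 of the genes nearest to Tmc3, while Ppl had 0.0489 with Tmc3 and 0.0479 with Prob1.

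By log2 CPM itself, which includes region and genotype, the nearest genes were Chdh (0.77), Foxo4 (0.762) and Syde2 (0.746) for Tmc3. They were Zfp488 (0.958), Chdh (0.913) and Rnf43 (0.911) for Prob1, and Csad (0.736), Polr2a (0.735) and Srsf6 (0.731) for Ppl. Chdh, the choline dehydrogenase gene, stood on the first 2 of these lists. The points share mice, regions and genotypes, so these values are descriptions.

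Relatives of the 3 genes were counted from 2 lists. A channel list of 17 genes, the other Tmc genes with partners of the hair cell channel and other mechanosensitive channels, had 12 measured members. Tmc6, which encodes one of the EVER proteins, rose in SCA3 brainstem from 11.9 to 19.1 CPM, which is 0.68 on the log2 scale (SE 0.145, FDR = 0.000486). Its values in the other regions were 0.39 in cerebellum, 0.29 in cortex and 0.32 in striatum, none past the threshold. Cib2, a calcium and integrin binding protein that partners Tmc1 and Tmc2, fell in SCA3 striatum from 12.6 to 7.53 CPM, which is -0.75 on the log2 scale (SE 0.176, FDR = 0.00279). Tmc6 was called in 24 of 25 alternative fits, the exception being mice 9083371 to 9083515 alone (0.48), and Cib2 in 22 of 25, not with libraries of RNA integrity number 7 or more (-0.64), in those mice alone (-0.78) or from striatum libraries alone (-0.75). No other channel gene was called, so 1 of 12 was higher in brainstem and 1 of 12 lower in striatum, against 1.92% and 7.54% of all genes called in either direction in these regions. At an unadjusted p below 0.05 there were 3 of 12 in brainstem, where 13.3% of all genes were below it, and 7 of 12 in striatum, where 23.2% were, the latter with Tmc6 higher and the others lower, among them Lhfpl5 (FDR = 0.0545), Cdh23 (FDR = 0.0602), Tmc7 (FDR = 0.0606) and Tmem63a (FDR = 0.0654). In the same striatum libraries 5 of 7 measured thalamic and 6 of 12 mature oligodendrocyte markers were also lower in SCA3. Their part in the striatal values of Cib2 and the other channel genes was not tested. In cerebellum and cortex 0 of 12 were called by the edgeR likelihood ratio test (1 and 0 with an unadjusted p below 0.05). The share of all genes called there was 0.0647% and 0.154%. The median log2 fold change of the list was 0.06, -0.06, -0.08 and -0.18 in brainstem, cerebellum, cortex and striatum, while that of all genes was between -0.0043 and 0.0028.

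A plakin and junction list of 26 genes had 15 measured members. Kazn, which encodes the periplakin-binding protein kazrin, rose in SCA3 striatum by 0.35 (SE 0.109, FDR = 0.0226), from 188 to 240 CPM. The call held in 15 of 25 alternative fits and was lost without any single one of 7 mice (7267054, 7267056, 7267058, 7267059, 9083373, 9083375 or 9083515), with values from 0.31 to 0.33. It was the 1 called gene of 15 in striatum, and 0 of 15 were called in the other regions by the same test (2 in brainstem and 0 in cerebellum and cortex with an unadjusted p below 0.05). Evpl, the envoplakin gene and partner of periplakin in epithelia, was not called in any region (log2 fold changes from -0.21 to 0.06). The median log2 fold change of the list was -0.04, -5e-04, 0.04 and 0.02. In striatum 3 of 15 had an unadjusted p below 0.05, where 23.2% of all genes did, and the 1 of 15 called stands beside 7.54% of all genes called there. Neither count was above the background.

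The 5 nearest measured genes on each side of each member, 30 in all, were examined in the 4 regions. Of these 120 tests 1 passed, Ubn1 in striatum, and 8 had an unadjusted p below 0.05. The share of all genes called was 1.92%, 0.0647%, 0.154% and 7.54% in brainstem, cerebellum, cortex and striatum, and 13.3%, 1.66%, 4.07% and 23.2% had an unadjusted p below 0.05, so the neighbours' counts were no more than the background. Ubn1, a histone chaperone subunit gene, ends 2 bases from the 3′ end of Ppl, on the other strand, and was 75.8 CPM in wild-type and 85.7 CPM in SCA3 striatum, a log2 fold change of 0.18 (SE 0.061, FDR = 0.0495). This call held in 9 of 25 alternative fits and was lost with the mouse as a replicate block (0.18, FDR = 0.0505). In brainstem, where Ppl differed most, Ubn1 was at -0.04 (SE 0.058). Stard5, 5.2 kb from Tmc3, and Dnajc18, 15.9 kb from Prob1, were not called in any region, with log2 fold changes between -0.12 and 0.15 and between -0.06 and -0.01.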

How the data were processed

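The authors sequenced poly-A selected, non-stranded libraries in paired reads, trimmed the reads, aligned them to GRCm38 with STAR 2.3.0e keeping unique alignments, and assigned reads to RefSeq genes with HTSeq 0.6.1, ignoring strand. The authors deposited raw counts of genes averaging above 4 CPM, with 1 column for each of the 53 libraries. Reads of overlapping genes on opposite strands were therefore counted together or lost.

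The members and lists were chosen with earlier results of these data known. Groups are region and genotype. Following the study's methods, edgeR 4.0.16 (R 4.3.3) was fitted to all libraries and 12372 genes with TMM normalisation, 8 group coefficients and a likelihood ratio test per contrast, with FDR (Benjamini-Hochberg) over all genes and a threshold of 0.05. SE and 95% intervals came from the negative binomial information. Logs of CPM used a prior count of 2. Relations over mice and covariates were tested by exact two-sided permutation (scipy 1.17.1), Benjamini-Hochberg adjusted within each family. The fit was tested on simulated data. The replicate number is the mouse, so libraries with the same number are paired by animal. Their deviations from group means correlated with a mean r between 0.0904 and 0.186 for the pairs of regions. Each mouse is a separate animal, and libraries of one mouse are not independent.

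Named genes are the 3 members, genes overlapping them, the 5 nearest measured genes on each side, the 5 and 3 genes most like each member by deviation and by level, and called members of the 2 lists, while Evpl, Stard5 and Dnajc18 were named as nearest relatives or neighbours. Lhfpl5, Cdh23, Tmc7 and Tmem63a were not called and were named as the channel genes nearest to the threshold in striatum. Alternatives were the quasi-likelihood test, DESeq2 1.42.0, limma-voom 3.58.1 with and without the mouse as a block, RLE size factors, at least 10 counts in every library, RIN or mouse number set as covariate, libraries with a RIN of at least 7, subsets of mice, single regions, and each mouse left out. Added after seeing the data were medians for the covariates and the fit without 1 brainstem library.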

Additional observations from a re-analysis of the deposited data

Results flagged for a closer look

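In the 24 groups of the 3 genes by region and genotype, 2 libraries stood far from the rest of their group by Dixon's criterion, which chance meets in about 1 in 20 groups. Ppl in wild-type brainstem was 6.106 CPM in mouse 7267059, and the gap to the next library took 0.736 of the group's range (critical value 0.526). The same mouse had the lowest Ppl of the wild-type striatum libraries, 2.58 CPM. Tmc3 in SCA3 striatum was 13.28 CPM in mouse 9083514, below the other 4 libraries, with a gap of 0.812 of the range (critical value 0.71). It was still above the highest wild-type striatum library, at 6.83 CPM.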

How the results depend on the processing

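The direction of the genotype differences follows from the choice of the genes and is no sign of stability. Of their 315 values under the alternatives 2 moved by over 1 SD, both in mice 7267054 to 7267059 alone, where Prob1 in cerebellum was 0.44 and Ppl in striatum 1.44 (log2). Of 477 values of wild-type region differences 11 changed direction or side of the threshold. Tmc3 in striatum over brainstem passed with the mouse number set as a covariate (-0.23), with libraries of RIN 7 or more (-0.31) and in mice 9083371 to 9083515 alone (-0.36), and ranged from -0.28 to -0.17 with each mouse left out. Those mice alone lost striatum over cortex for Tmc3 (0.34) and Prob1 (0.22). With each mouse left out, Tmc3 in striatum over cerebellum ranged from -0.38 to -0.27, Prob1 in striatum over cortex from 0.22 to 0.34 and Ppl in striatum over cortex from -0.14 to 0.12. The last also changed sign with the mouse as a fixed replicate block (-0.027), and neither block changed another call among the wild-type region results. Called list and neighbour genes in striatum, 3 in the report, were 5 by DESeq2, 0 with RIN of 7 or more, in mice 9083371 to 9083515 or from that region alone, and 1 to 10 with each mouse left out (10 without 9082857 or 9083371). In brainstem they were 2 from that region alone and 1 to 2 with each mouse left out, and in cerebellum and cortex 0 throughout. Calls over all genes in striatum, 933, were 139 with RIN of 7 or more, 30 in mice 9083371 to 9083515, 88 from that region alone, and 297 to 1833 with each mouse left out, and in brainstem, 238, they were 392 from that region alone and 120 without 9083514 or 154 without 9083515. In cortex, 19, they were 11 by limma-voom without and 9 with the replicate block, 12 in mice 9083371 to 9083515 and 35 from that region alone. Cortex also had 11 without 9083514, 12 without 7267056 and 28 without 9082853. In cerebellum, 8, they were 5 by both limma-voom fits and 21 from that region alone. Cerebellum also had 5 without 9082857 and 12 without 9083371. Correlations over mice changed sign in 28 of 192 values, 18 of them without the 2 farthest mice, and 0 passed in any alternative. Leaving out the farthest mice narrows the range, which by itself can weaken r. The striatal difference in library totals, SCA3 minus wild-type, was 3.55 M by means and -5.43 M by medians. The causes of these changes were not tested.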
